A study of Homo sapiens with 6 samples.

Results

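Messenger RNA of 43 genes of DNA replication and mitosis was compared between the distal and the proximal invaded regions of tumours in a sciatic nerve invasion model. The tumour cells were DMS114, a long-established line of human small cell lung cancer. The genes are 22 S-phase genes, which build, fire and supply replication forks or drive entry into S phase, and 21 G2/M genes, which condense, align and separate the chromosomes. They were taken by symbol, and not by a measured value, from 17081 rows of the deposited count table. The list was nevertheless chosen with earlier results of these data known. All 43 were found and were among the 13382 rows that passed the filter on low counts. The distal group holds 3 libraries (distal 1 to 3) and the proximal group 3 (proximal 1 to 3). All 6 carry the same cell line, and the labels name no treatment, genotype change or time. The host animal, its age, any pooling and whether replicates came from separate animals were not given in the sources used here. The tests therefore measure the spread between the 6 samples, and that spread may be technical. In such bulk RNA, fewer cycling cells and less cell cycle RNA per cell cannot be told apart.

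Replication is prepared in G1, when the licensing factors CDC6 and CDT1 load the ring-shaped MCM helicase onto origins, and begins when cyclin-dependent kinases and the kinase DBF4-CDC7 turn each ring into an active helicase with CDC45 and the GINS complex. Transcription of these genes is switched on at the G1/S border by E2F factors, which the RB protein restrains and which small cell lung cancers commonly release by losing RB1. Later in the cycle B-MYB, FOXM1 and the MuvB core drive another wave, from cyclin B and CDK1 to the kinetochore and spindle motors. In quiescent cells that wave is held down by the DREAM complex bound at CHR elements, often beside CCAAT boxes bound by NF-Y.

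Total counts ran from 16171106 to 24217043 in the distal libraries and from 21865148 to 26116191 in the proximal ones. The labelled cell type was checked against markers of small cell lung cancer. SYP, a synaptic vesicle protein, had 59.5 to 63.9 CPM (counts scaled to library size) in distal and 56.9 to 60.8 CPM in proximal libraries. The neuroendocrine regulator INSM1 and the tuft-cell regulator POU2F3 had at most 1.47 CPM in any library, and NEUROD1, another neuroendocrine regulator, had 6.47 CPM in distal 3 and at most 0.618 CPM elsewhere. YAP1, the Hippo pathway co-activator which marks a non-neuroendocrine class of the disease, had 167 to 184 CPM in distal and 168 to 187 CPM in proximal libraries. Among markers of other cells, skeletal muscle varied most, with 23 of 23 in the table and 0 to 5 of them at 0 in a library. Their summed level was 57.8, 85.9 and 2930 CPM in distal 1, 2 and 3, and 60.1, 87.8 and 465 CPM in proximal 1, 2 and 3. Leukocyte markers, 10 of 14 in the table, summed to 2.43 to 6.17 CPM in distal and 1.62 to 5.97 CPM in proximal libraries. Endothelial markers, 7 of 8 in the table, summed to 1.15 to 2.93 CPM in distal and 0.658 to 1.84 CPM in proximal libraries. Both of these lists were highest in distal 3 and proximal 3. The 12 Schwann cell markers summed to 109 to 158 CPM in distal and 97.4 to 193 CPM in proximal libraries, and the 10 fibroblast and perineurial markers to 4592 to 5648 CPM in distal and 5466 to 6177 CPM in proximal libraries. COL3A1 made up most of that last sum, with 3725 to 4519 CPM in distal and 4557 to 5104 CPM in proximal libraries. COL1A1 instead was highest in the number 3 library of each region, with 16.04, 18.9 and 38.3 CPM in distal and 7.70, 18.6 and 62.2 CPM in proximal libraries, and COL1A2 was highest in the same libraries. DCN had 314 to 577 CPM in distal and 395 to 584 CPM in proximal libraries, and LUM 382 to 567 and 297 to 423 CPM. From the same list, PDGFRA had at most 1.28 CPM and POSTN at most 3.30 CPM in any library. Which cells the RNA of this list came from was not tested.

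The promoters of the 2 phases differ in their letters. RefSeq promoters of GRCh38.p14, from 250 bases before to 50 after each transcript start, were at hand for 19 of the S-phase genes and 16 of the G2/M genes. Of the S-phase genes shown first, E2F1 and E2F2 encode transcription factors of the G1/S switch and had no overlap between the regions, PCNA is the sliding clamp of the fork, and PRIM1, the small primase subunit, had the lowest p of all 43 genes. The stretches end 1 base before the start and are written 5′ to 3′ on the gene's strand, which is the minus strand for all 4, at chr20:33686386-33686465, chr1:23531234-23531313, chr20:5126623-5126732 and chr12:56752324-56752403. Capitals mark E2F-type words (TTTCCCGC, TTTGGCGC, TTTCGCGC or TTTGCCGC) and CCAAT boxes, either way round.
E2F1: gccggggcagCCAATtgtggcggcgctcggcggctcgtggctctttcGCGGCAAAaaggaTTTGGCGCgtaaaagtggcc
E2F2: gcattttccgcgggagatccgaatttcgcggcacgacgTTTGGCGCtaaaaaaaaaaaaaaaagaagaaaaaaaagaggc
PCNA: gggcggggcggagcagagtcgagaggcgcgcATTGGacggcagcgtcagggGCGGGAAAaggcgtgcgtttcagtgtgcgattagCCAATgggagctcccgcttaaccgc
PRIM1: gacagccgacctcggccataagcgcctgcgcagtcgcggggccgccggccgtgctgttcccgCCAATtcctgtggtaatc

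The mitotic genes chosen for display hold the CHR element a short way downstream of a CCAAT box. MKI67 encodes the proliferation marker Ki-67, which coats mitotic chromosomes, CCNB2 a B-type cyclin, PLK1 a kinase of mitotic entry and spindle assembly, and KIF11 the motor that pushes spindle poles apart. Their stretches lie at chr10:128126424-128126533 on the minus strand and at chr15:59105016-59105145, chr16:23678809-23678888 and chr10:92593050-92593129 on the plus strand. Capitals mark CHR words (TTTGAA or TTCGAA) and CCAAT boxes, either way round. The last CHR word and the last CCAAT box of MKI67 overlap and form 1 capital run.
MKI67: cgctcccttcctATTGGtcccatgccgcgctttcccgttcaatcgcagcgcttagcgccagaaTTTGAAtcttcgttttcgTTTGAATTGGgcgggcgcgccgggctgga
CCNB2: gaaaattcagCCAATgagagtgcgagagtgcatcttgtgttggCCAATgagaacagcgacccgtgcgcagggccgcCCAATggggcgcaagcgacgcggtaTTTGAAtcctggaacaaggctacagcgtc
PLK1: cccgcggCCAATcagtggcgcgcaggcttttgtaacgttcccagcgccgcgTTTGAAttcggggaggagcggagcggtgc
KIF11: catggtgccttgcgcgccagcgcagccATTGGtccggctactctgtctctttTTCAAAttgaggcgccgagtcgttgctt

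Counted on both strands with overlaps allowed, an E2F-type word was found in 13 of 19 S-phase genes (68.4%) and in 2 of 16 G2/M genes (12.5%), against 6.55% of the genes tested and 3.99% of all genes in the promoter table. The CHR word was found in 2 of 19 S-phase genes (10.5%) and 12 of 16 G2/M genes (75%), against 15.45% of the genes tested and 19.5% of all genes. CCAAT boxes were common to both, at 68.4% of the S-phase and 87.5% of the G2/M genes, against 43.3% of the genes tested and 39.7% of all genes. Within 150 bases before the start, E2F-type words were in 52.6% of the S-phase and 6.25% of the G2/M genes, against 3.61% of the genes tested and 2.24% of all genes, and CHR words in 0 of 19 S-phase and 8 of 16 G2/M genes (50%), against 6.93% of the genes tested and 9.72% of all genes. A match is a run of letters, and factor binding was not measured.

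**Figure D1:**
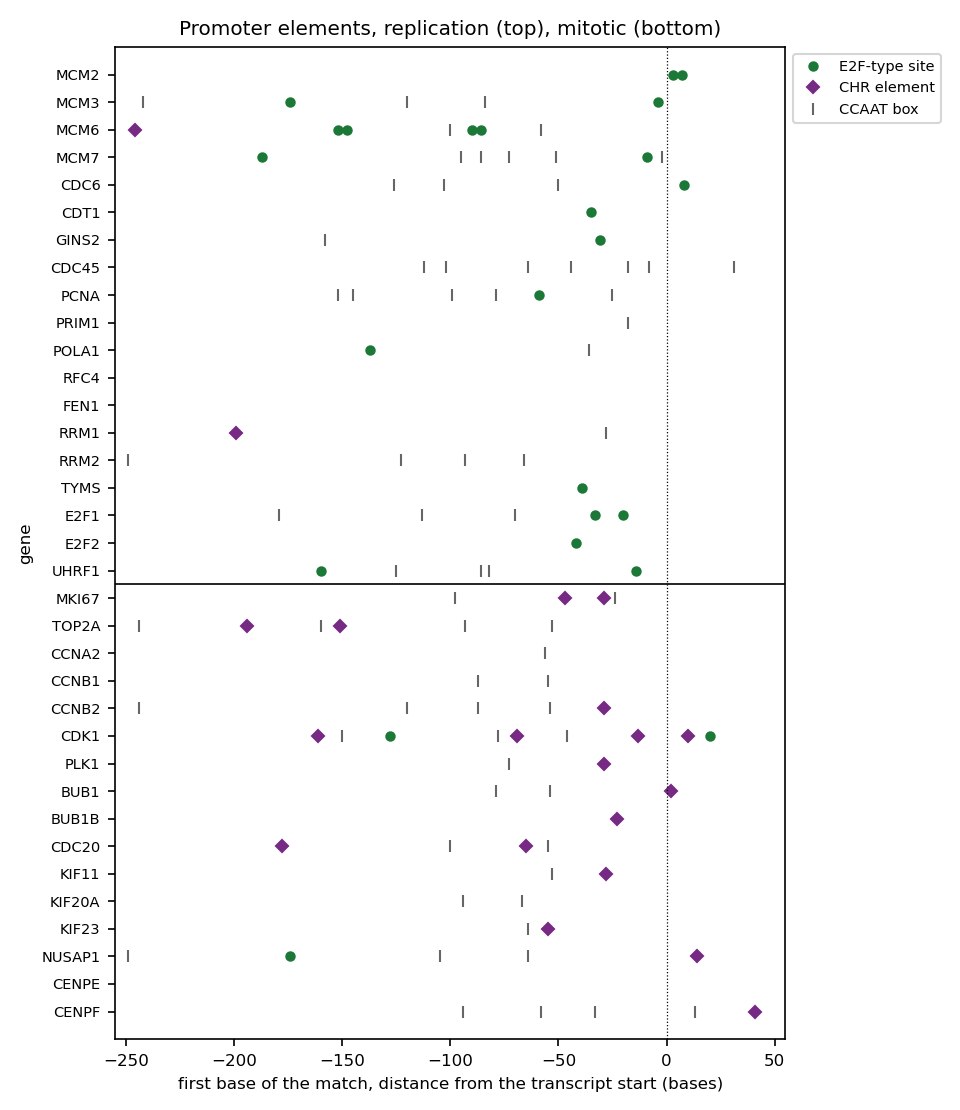
Positions of E2F-type words, CHR words and CCAAT boxes (x axis, bases from the transcript start, matches pooled over a gene's listed starts) in the promoters of 19 S-phase genes (top) and 16 G2/M genes (bottom). E2F-type words sit mostly in the upper block, in 13 genes, and CHR words mostly in the lower block, in 12 genes.

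No gene of either phase passed the test of distal against proximal. After Benjamini-Hochberg adjustment, edgeR's quasi-likelihood test called 0 of the 43, beside 0 of 13382 genes tested (0%), and DESeq2 also called 0 of them, beside 1 of 13349 genes (0.00749%). The adjusted p by edgeR's quasi-likelihood test was 0.9997 for each of the 43. At an unadjusted p under 0.05, PRIM1 was the only one on the higher side in distal libraries, where 0.665% of all genes stood, and 0 were on the lower side, where 0.665% stood as well. The distal and proximal libraries did not overlap, with distal higher, for PRIM1, E2F1, E2F2 and UBE2C, which is 4 of 43 (9.3%) beside 3.2% of all genes tested, and for 0 of 43 with distal lower, beside 3.09%. The gaps between the regions were small in all 4.

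The absence of calls comes with narrow intervals. For 42 of the 43 genes (97.7%) the 95% interval of the distal over proximal ratio lay within a 1.5-fold change either way. The exception, NUSAP1, lay within 2-fold. The 1.5-fold bound held for 69.1% of all genes tested. It held for 75.2% of the 12117 genes with a mean level between 1.43 and 709 CPM, the range of the 43. NUSAP1 set the lower end of that range and the other 42 began at 22.1 CPM, so that background is not matched in level. The estimated log2 fold changes, distal minus proximal, ran from -0.052 to 0.27 in the S-phase genes, with a median of 0.046, and from -0.13 to 0.097 in the G2/M genes, with a median of -0.035. The median over all genes tested was 0.0045. The estimate was above 0 for 17 of 22 S-phase genes and 5 of 21 G2/M genes, beside 51.6% of all genes. Leaving out distal 3 put 12 of 21 G2/M genes above 0, with a median of 0.017, and leaving out proximal 1 or proximal 2 put 9 above 0. The G2/M median was -0.11 without distal 1, -0.055 without distal 2, -0.0032 without proximal 2 and -0.082 without proximal 3. For the S-phase genes the count ran from 13 to 22 over the 6 libraries left out in turn, the highest without proximal 2. The S-phase median was 0.083 without distal 2, 0.086 without distal 3, 0.11 without proximal 2 and 0.019 without proximal 3.

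**Figure D2:**
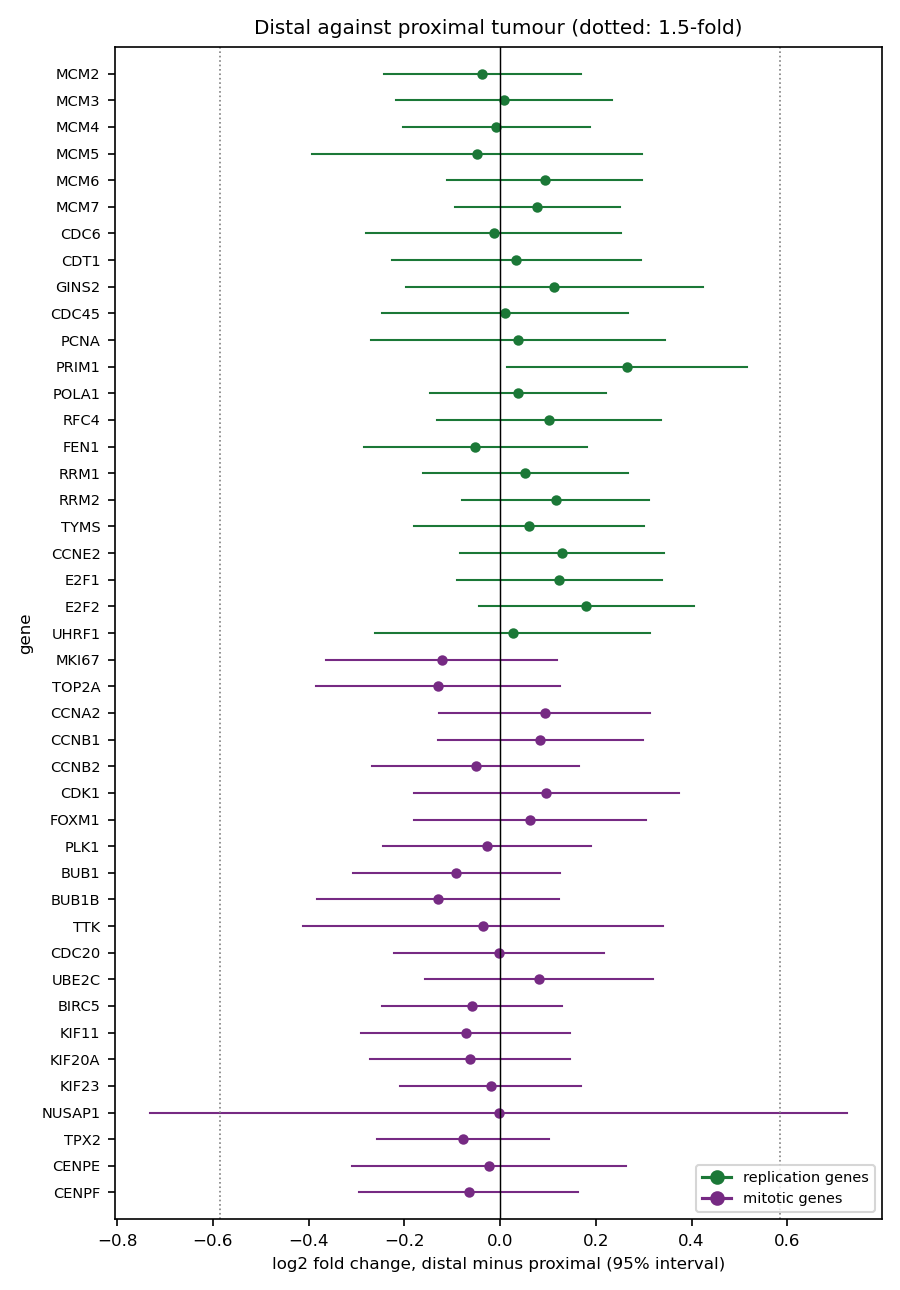
Log2 fold change, distal minus proximal, with its 95% interval (x axis) for each of the 43 genes (y axis), S-phase genes above G2/M genes. The points lie between -0.13 and 0.27, and the interval of PRIM1 is the only one that leaves out 0.

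The 43 genes were expressed over a wide range. Per kilobase of exon, PCNA was the highest of the S-phase genes at 156 CPM, followed by TYMS, MCM3 and MCM4 at 105, 95.9 and 84.0 CPM per kilobase, and E2F2 was the lowest at 5.16. Among the G2/M genes TOP2A led at 123 CPM per kilobase, before CDK1 at 105 and CCNB1 at 84.4, and the lowest apart from NUSAP1 was CENPE at 16.6. The subunits of the MCM ring, which join in equal numbers in the protein, had mean RNA levels from 20.7 (MCM5) to 95.9 (MCM3) CPM per kilobase. The 3 libraries of a region spread over much of the distance between neighbours in this order, as the plot of levels shows.

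NUSAP1, a microtubule-binding protein of the spindle, stood far below the others at 0.582 CPM per kilobase, with 35, 31 and 24 reads in distal libraries and 39, 31 and 30 reads in proximal ones. In GENCODE release 29, 72.8% of its exonic bases are shared with AC087721.2, a gene model on the same strand. Read counters commonly discard reads that fall on more than 1 gene, and the annotation and the overlap setting behind the counts were not given in the sources used here. Its level is therefore uncertain, and the part of the overlap in it was not tested. The other genes that share over 10% of their exonic bases are PRIM1 (34.8% of exonic bases, 25.99% on the same strand), RRM2 (27.9%, same strand), TYMS (64.6%), CCNE2 (47.6%) and MCM2 (32.0%), of which the last 3 share only with genes on the opposite strand. Their levels carry the same doubt. Another 10 of the 43 share 0.262% to 9.36%.

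**Figure D3:**
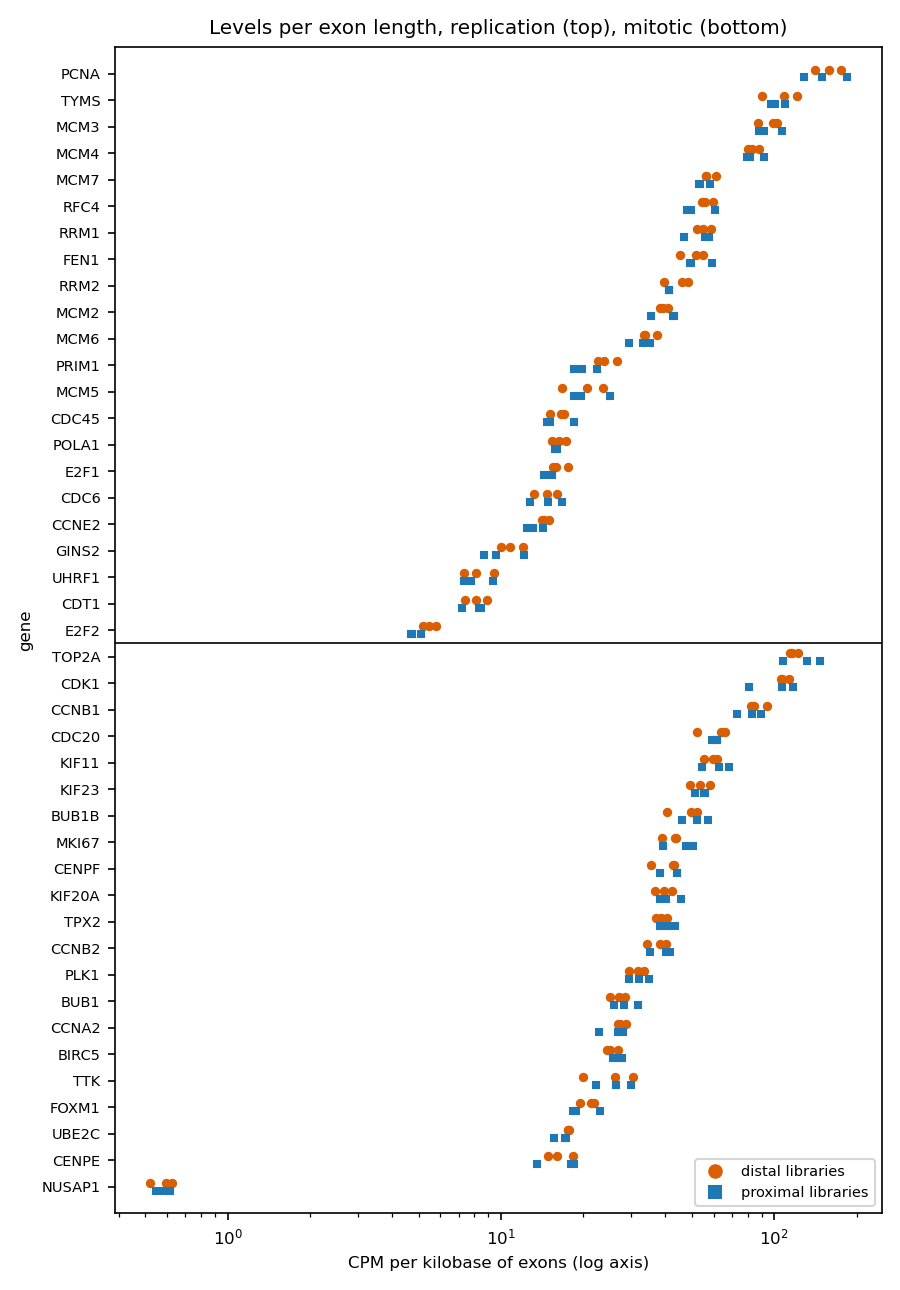
CPM per kilobase of exon (x axis, log scale) of each gene (y axis) in the 3 distal and 3 proximal libraries, each point 1 library. The points of a gene lie close together, while genes run from 0.582 (NUSAP1) to 156 (PCNA) on average.

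The MCM helicase unwinds DNA ahead of the fork, and its subunits did not separate the regions. MCM2 had 149, 138 and 142 CPM in distal 1, 2 and 3, against 129, 155 and 156 CPM in proximal 1, 2 and 3. MCM4 had 383, 349.8 and 359 CPM in distal and 353, 399 and 346 CPM in proximal libraries. MCM5 had 83.4, 73.2 and 59.0 CPM in distal and 65.2, 88.9 and 69.1 CPM in proximal libraries. The regions overlapped in all 3, and MCM5 spread most of the S-phase genes, with its lowest value in distal 3 and its highest in proximal 2, 1.51 times apart. Their log2 fold changes were -0.037 ± 0.092 (SE), -0.0078 ± 0.088 and -0.049 ± 0.15. MCM3, MCM6 and MCM7 had estimates of 0.0079, 0.093 and 0.078, so 3 of the 6 subunits stood above 0 and 3 below.

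Among the licensing factors and helicase activators, CDC6, the ATPase that loads the MCM ring, had 77.5, 63.5 and 70.8 CPM in distal libraries and 71.5, 80.8 and 61.4 CPM in proximal ones. The values interleave, and the log2 fold change was -0.013 ± 0.12 (SE). The estimates of CDT1, its partner in loading, of GINS2, a subunit of the GINS complex, and of CDC45 were 0.034, 0.11 and 0.011.

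At the fork itself, PCNA had 257, 233 and 207 CPM in distal libraries, against 219.8, 272 and 188 CPM in proximal ones. Its highest and lowest values were both proximal, 1.44 times apart, and the log2 fold change was 0.038 ± 0.14 (SE). FEN1, the nuclease that trims Okazaki fragments, had 126, 119 and 104 CPM in distal and 114, 136 and 113 CPM in proximal libraries, which overlap, and its estimate of -0.052 ± 0.10 was the lowest of the S-phase genes.

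PRIM1, at 56731580 to 56752323 of chromosome 12 (GRCh38.p14), encodes the subunit that makes the RNA primers from which each Okazaki fragment starts. It had 37.1, 31.6 and 33.1 CPM in distal libraries, against 31.3, 27.6 and 25.8 CPM in proximal ones. The regions do not overlap, but the gap between distal 2 and proximal 1 is narrower than the spread within either region. The means were 33.9 ± 2.86 CPM in distal and 28.2 ± 2.78 CPM in proximal libraries (SD, n = 3 each). The log2 fold change was 0.27 ± 0.11 (SE) with a 95% interval from 0.014 to 0.52 and an unadjusted p of 0.0402 by edgeR's quasi-likelihood test, which did not pass the adjustment over all genes. It kept its sign with any library left out, between 0.19 and 0.34. Its partners at the fork, the catalytic subunit POLA1 of DNA polymerase alpha and the clamp loader subunit RFC4, had log2 fold changes of 0.038 and 0.10.

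Deoxynucleotides come from ribonucleotide reductase, whose large and small subunits are RRM1 and RRM2, and from thymidylate synthase, TYMS. RRM1 had 198, 176 and 184 CPM in distal libraries and 187, 194 and 157 CPM in proximal ones, which overlap, with a log2 fold change of 0.053 ± 0.096 (SE). RRM2 averaged 172 ± 17.6 CPM in distal and 159 ± 0.238 CPM in proximal libraries (SD, n = 3 each) and TYMS had an estimate of 0.060. The 3 genes all had estimates above 0, between 0.053 and 0.12, and none passed the test.

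The G1/S regulators had the highest median estimate of the role groups, 0.13 on the log2 scale, and 4 of 4 were above 0. E2F1, a transcriptional activator of S-phase genes, had 40.0, 38.9 and 43.9 CPM in distal and 38.5, 36.0 and 38.1 CPM in proximal libraries. E2F2, another activator of the family, had 30.1, 27.0 and 28.3 CPM in distal and 24.4, 24.6 and 26.4 CPM in proximal libraries. In both the lowest distal library stood only just above the highest proximal library. CCNE2, a cyclin that activates CDK2 at the G1/S border, had 49.3, 48.7 and 51.5 CPM in distal and 44.9, 49.1 and 42.7 CPM in proximal libraries, where proximal 2 reached into the distal range. The log2 fold changes were 0.12 ± 0.096 (SE) for E2F1, 0.18 ± 0.10 for E2F2 and 0.13 ± 0.096 for CCNE2, and each 95% interval included 0. UHRF1, which brings DNA methyltransferase to newly copied DNA, had an estimate of 0.027.

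The 2 classic proliferation markers did not set the regions apart. MKI67 had 551, 556 and 492 CPM in distal libraries, against 496, 637 and 605 CPM in proximal ones. TOP2A, the topoisomerase that untangles sister chromatids, had 703, 659 and 670.0 CPM in distal and 758, 845 and 619 CPM in proximal libraries. The regions overlap in both genes, with proximal 2 the highest library in each. Mean MKI67 was 533 ± 35.6 CPM in distal and 579.7 ± 73.8 CPM in proximal libraries (SD, n = 3 each), and mean TOP2A was 677 ± 23.1 CPM in distal and 741 ± 114 CPM in proximal libraries. The log2 fold changes were -0.12 with a 95% interval from -0.36 to 0.12 for MKI67 and -0.13 from -0.38 to 0.13 for TOP2A. With 1 library left out, the TOP2A estimate ran from -0.24 to -0.025.

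The engine of mitotic entry is CDK1 with cyclin B, and FOXM1 is the transcription factor that raises both. CDK1 had 231, 217 and 216 CPM in distal libraries, against 218, 238 and 165 CPM in proximal ones. CCNB1 had 205, 182 and 178 CPM in distal and 180.1, 195 and 158 CPM in proximal libraries. FOXM1 had 79.8, 78.2 and 71.1 CPM in distal and 68.6, 84.1 and 66.7 CPM in proximal libraries. Apart from CCNB1 in distal 1, the distal values lay within the proximal range, and proximal 3 was the lowest library of all 3 genes. CCNA2, the cyclin of S phase and G2, had 80.1, 74.9 and 76.3 CPM in distal and 74.8, 78.4 and 63.7 CPM in proximal libraries, again with proximal 3 the lowest library and distal 1 above the proximal range. The log2 fold changes were 0.097 ± 0.12 (SE) for CDK1, 0.084 ± 0.096 for CCNB1, 0.063 ± 0.11 for FOXM1 and 0.093 ± 0.099 for CCNA2. Without proximal 3 they were -0.043 for CDK1, 0.0073 for CCNB1, 0.00098 for FOXM1 and 0.0096 for CCNA2, and without proximal 2 they were 0.21, 0.15, 0.17 and 0.15. CCNB2, the other B-type cyclin, had an estimate of -0.051.

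The group of mitotic kinases and checkpoint proteins holds PLK1 and the spindle checkpoint members BUB1, BUB1B and TTK, which hold back anaphase until each kinetochore is attached. Estimates were below 0 in 4 of 4, with a median of -0.063. BUB1B, the checkpoint protein BubR1, had 196, 186 and 153 CPM in distal libraries, against 197, 216 and 173 CPM in proximal ones. TTK, the checkpoint kinase also known as MPS1, had 116, 99.7 and 76.0 CPM in distal and 114, 101 and 84.7 CPM in proximal libraries. The lowest library of both was distal 3, and TTK spread most of the 43 genes, by 1.53 times between distal 1 and distal 3, which are libraries of 1 region. The log2 fold changes were -0.13 ± 0.11 (SE) for BUB1B and -0.035 ± 0.16 for TTK, and those of BUB1 and PLK1 were -0.091 and -0.028.

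CDC20 and UBE2C start the exit from mitosis through the anaphase-promoting complex, CDC20 as its activator and UBE2C as its ubiquitin-conjugating enzyme. CDC20 had 117, 121 and 95.7 CPM in distal libraries and 113, 108 and 113 CPM in proximal ones, so the distal values lay on both sides of the proximal values. UBE2C had 22.6, 22.7 and 22.9 CPM in distal and 20.04, 22.3 and 22.1 CPM in proximal libraries. Its regions do not overlap, by less than 1 CPM, and the log2 fold change was 0.081 ± 0.11 (SE). That of CDC20 was -0.0025 ± 0.098. BIRC5, the survivin subunit of the chromosomal passenger complex, had an estimate of -0.059.

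Spindle and kinetochore genes completed the list, with estimates below 0 in 5 of 5 and 2 of 2. KIF11 had 299.7, 289 and 269 CPM in distal and 306, 332 and 263 CPM in proximal libraries. CENPF, a large outer kinetochore protein, had 441, 443 and 367 CPM in distal and 458, 456 and 396 CPM in proximal libraries. The regions overlap in both, with log2 fold changes of -0.072 ± 0.098 (SE) and -0.066 ± 0.10. The cytokinesis motors KIF20A and KIF23, the spindle assembly factor TPX2 and the kinetochore motor CENPE had estimates of -0.062, -0.020, -0.077 and -0.023, and that of NUSAP1 was -0.0030 ± 0.33.

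What variation there was ran between libraries rather than between regions. The highest library of a gene was 1.12 to 1.53 times its lowest, with a median of 1.26, beside a median of 1.34 over all genes tested. Proximal 2 was the highest library for 9 S-phase and 12 G2/M genes, and distal 1 for 7 and 5. Proximal 3 was the lowest for 10 S-phase and 7 G2/M genes, distal 3 for 5 and 11, and proximal 1 for 5 and 2. Each region thus held a library with high values of both phases and a library with low values of the G2/M genes. Distal 3 and proximal 3, the low ones in the G2/M genes, were also the 2 libraries with the most RNA of skeletal muscle, leukocyte and endothelial markers, and the part of these in the result was not tested. Without both, the median log2 fold change was 0.047 for S-phase genes and -0.040 for G2/M genes, and 0 genes were called by edgeR.

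**Figure D4:**
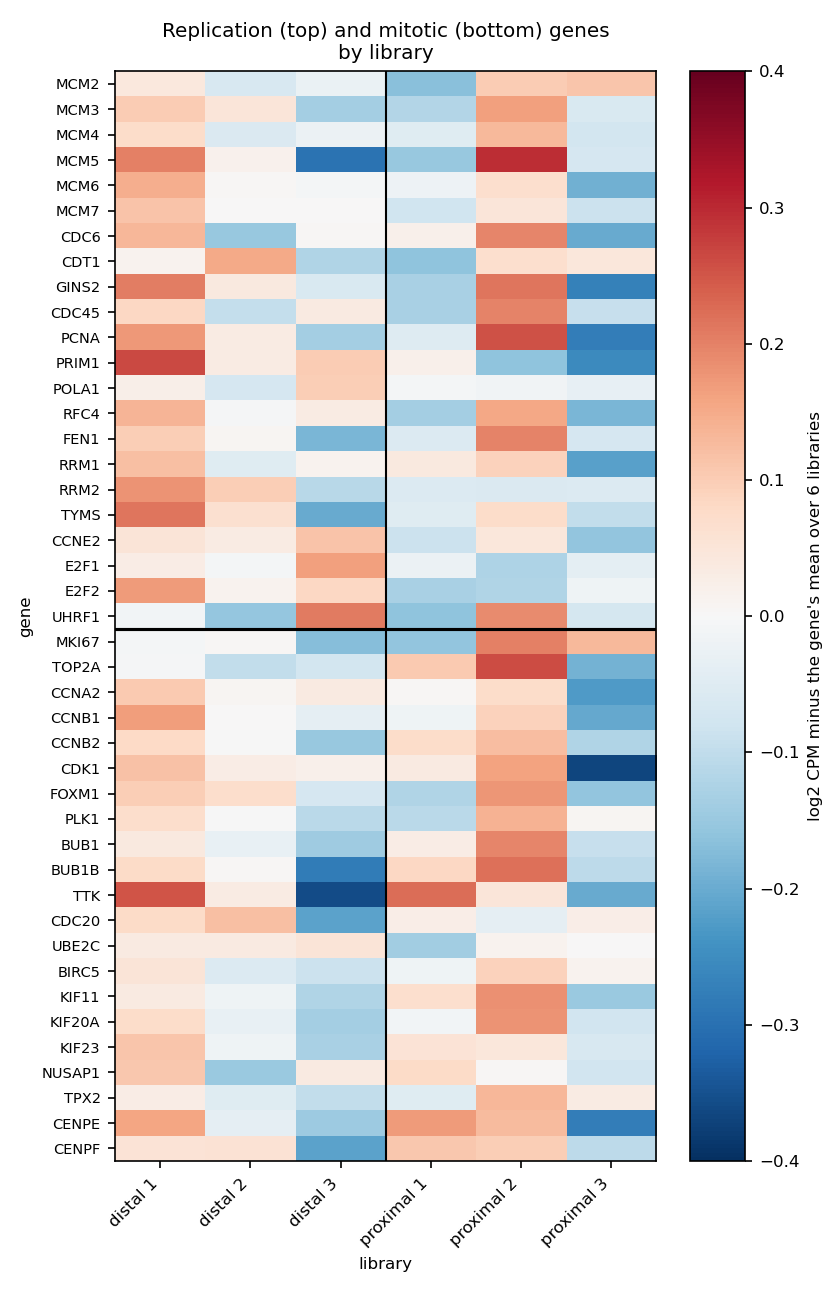
Log2 CPM minus the gene's mean over 6 libraries (colour) for each gene (rows, S-phase above G2/M) in each library (columns, distal left of proximal). Distal 1 and proximal 2 are mostly red, and proximal 3 and the lower block of distal 3 mostly blue.

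The role groups did not move as a block within distal 3. There the 4 G1/S regulators averaged 0.14 above their own means on the log2 scale, the highest value of that group in the 6 libraries, while the 4 mitotic kinases averaged -0.22 and the 2 kinetochore genes -0.18. In proximal 3 the cyclins, CDK1 and FOXM1 averaged -0.21 and the kinetochore genes -0.19, and in proximal 2 MKI67 and TOP2A averaged 0.23.

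Averaged over each phase, the S-phase genes stood at 0.12, -0.0052 and -0.020 from their own means in distal 1, 2 and 3, on the log2 scale, and at -0.076, 0.092 and -0.11 in proximal 1, 2 and 3. The G2/M genes stood at 0.082, -0.0053 and -0.11 in distal and at 0.021, 0.12 and -0.10 in proximal libraries. In each phase the regions overlapped. Their difference within a library, S minus G2/M, depends only very slightly on how libraries are scaled. It was 0.035, 0.00013 and 0.094 in distal libraries, against -0.097, -0.029 and -0.0024 in proximal ones. The regions did not overlap in it, although distal 2 and proximal 3 nearly met. The mean difference was 0.043 ± 0.047 in distal and -0.043 ± 0.049 in proximal libraries (SD, n = 3 each), which is 0.086 apart. In summed CPM, S-phase over G2/M genes gave 0.695, 0.671 and 0.703 in distal libraries, against 0.623, 0.646 and 0.664 in proximal ones. A score over chosen genes was given no test.

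The same difference over other genes of the 2 processes did not separate the regions. Over 67 other replication genes and 98 other mitotic genes it was -0.0027, -0.018 and 0.017 in distal libraries, against -0.035, -0.036 and 0.075 in proximal ones. Here proximal 3 was the highest and the other 2 proximal libraries the lowest, and the means were -0.0012 ± 0.017 in distal and 0.0012 ± 0.064 in proximal libraries (SD, n = 3 each). The offset between the phases is thus a value of the 43 genes and was not found in the wider lists.

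**Figure D5:**
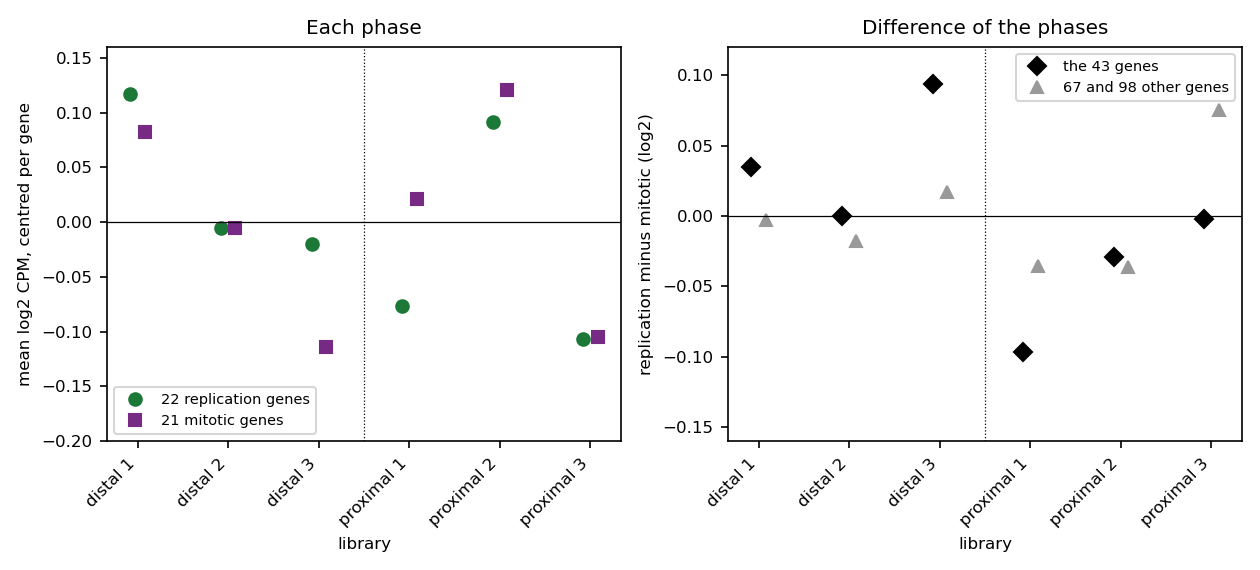
Left, mean log2 CPM centred per gene (y axis) of the 22 S-phase and 21 G2/M genes in each library (x axis). Right, S minus G2/M in each library for the 43 genes and for 67 and 98 other genes: the black symbols are 0.00013 or above in distal and -0.0024 or below in proximal libraries, while the grey ones overlap.

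The rest of the cell cycle machinery held no call either. Of 242 other cell cycle genes tested in 10 lists, edgeR's quasi-likelihood test called 0, 127 had estimates above 0, and the median log2 fold change was 0.0048. The 95% interval lay within 1.5-fold for 231 of them (95.5%). By list, genes with an estimate above 0 were 10 of 17 for origin licensing and firing, 15 of 33 for fork enzymes, 8 of 17 for nucleotide supply, 10 of 19 for G1 cyclins and their kinases and inhibitors, and 14 of 18 for the E2F, RB and DREAM proteins. They were 15 of 22 for the replication checkpoint and fork repair, 16 of 32 for the kinetochore, 17 of 36 for the spindle and cytokinesis, 18 of 30 for mitotic entry and exit, and 4 of 18 for cohesin and condensin. Single libraries moved several of these counts by over 1.5 times. Without proximal 3 the kinetochore count was 4, the spindle count 5, the E2F count 9 and the cohesin and condensin count 2. Without distal 1 the count was 7 for fork enzymes, 5 for nucleotide supply, 9 for the E2F list, 9 for the spindle, 11 for mitotic entry and exit, and 2 for cohesin and condensin. Without distal 3 the kinetochore count was 25 of 33, and without proximal 2 the cohesin and condensin count was 9.

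The 4 lowest p-values among these genes belonged to SAMHD1, WEE1, TROAP and CDK6. SAMHD1, an enzyme that breaks down deoxynucleotides, had 24.3, 25.96 and 26.9 CPM in distal libraries, against 27.4, 38.8 and 32.2 CPM in proximal ones. WEE1, the kinase that holds CDK1 inactive before mitosis, had 39.3, 40.0 and 44.4 CPM in distal and 35.1, 35.9 and 33.6 CPM in proximal libraries. CDK6, a G1 kinase that phosphorylates RB, had 2.47, 2.68 and 2.75 CPM in distal and 2.21, 1.02 and 1.30 CPM in proximal libraries. In these 3 the regions did not overlap. The log2 fold changes were -0.35 ± 0.13 (SE) for SAMHD1, 0.24 ± 0.096 for WEE1 and 0.79 ± 0.36 for CDK6, with unadjusted p-values of 0.0242, 0.0311 and 0.0497 by edgeR's quasi-likelihood test and adjusted p of 0.9997 each. TROAP, a spindle-associated protein, had 42.8, 48.8 and 47.7 CPM in distal and 39.4, 40.7 and 39.1 CPM in proximal libraries, also without overlap, and a log2 fold change of 0.22 ± 0.096. WEE1, CDK6 and TROAP were higher and SAMHD1 lower in distal libraries, which is 3 and 1 of 242 beside the 0.665% of all genes on each side. Of the 242 genes, 10 (4.13%) had no overlap with distal higher and 7 (2.89%) with distal lower. The shares over all genes tested were 3.2% and 3.09%. The 4 genes were picked by low p, so their lack of overlap adds no separate evidence.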

How the data were processed

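RNA of 6 tumour samples from DMS114 cells, 3 distal and 3 proximal, was extracted with Trizol, and samples with an integrity number over 7.0 went into TruSeq poly(A) libraries read on a NovaSeq X Plus, per the labels. The authors deposited raw counts per gene symbol. The submitters' processing notes name GRCh38 as the build and list STAR 2.7.3a, featureCounts 2.0.1, Trimmomatic 0.39, bcl2fastq and DESeq2. Annotation, strand setting and host reads were not given in the sources used here.

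The deposited counts went into edgeR 4.0.16 (R 4.3.3) unchanged: expression filter by group, TMM scaling, robust quasi-likelihood test over all genes tested, Benjamini-Hochberg adjustment at 0.05, no covariate. The procedure was also run on simulated counts drawn with the dispersions fitted to these libraries, and the outcome is not reported here. CPM used TMM-scaled library sizes. The SE is the absolute log2 fold change over the square root of F. Phase averages used log2 CPM with a prior count of 2. DESeq2 1.42.0 and limma-voom (limma 3.58.1) were alternatives, with other scalings, filters and prior counts, each library left out, and a replicate block. Exon lengths and overlaps came from GENCODE 29, promoters from RefSeq.

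The genes, the other lists and the markers were chosen with earlier results of these data known. Values in every library are given for 8 genes always named, for genes without overlap of the regions, for the lowest p per phase and direction, for the widest spread and for the most abundant gene of each role. Up to 2 genes per direction of each other list could be named. SAMHD1, WEE1, CDK6 and TROAP are those with an unadjusted p under 0.05. Whether the replicate numbers pair the samples was not settled, and the main fit did not pair them. No 2 libraries matched within sampling noise. Distal 3 stood furthest off, with a chi-squared per gene of the counts of 42.4 to 49.4 in its pairs, against 5.80 to 26.7 in the other pairs. The depth of 16171106 to 26116191 counts gave each gene except NUSAP1 at least 375 reads in every library.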

Additional observations from a re-analysis of the deposited data

How the results depend on the processing

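No gene of the 43 was called under the alternatives run on calls: DESeq2, limma-voom, other scalings and filters, a replicate block, each library left out, or both number 3 libraries left out (the last, and the exchange of gene lists, were chosen after seeing the data). Over all genes DESeq2 called 1 where edgeR called 0, and leaving out libraries in turn gave 0 to 1. The difference of the phases was -0.0025 with other replication and mitotic genes, against 0.086, and 0.059 to 0.11 with 1 library left out. With the replicate number as a block the medians were 0.050 for S-phase and -0.046 for G2/M genes, with 0 called. Same-numbered libraries deviated together with r of 0.36, -0.11 and 0.18, against -0.32 to 0.13 for libraries of unlike number. These values do not settle whether the numbers pair the samples.

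Log2 estimates changed sign for 12 of the 23 genes given with values in every library. In the main fit the estimates of these 12 ran from -0.072 (KIF11) to 0.097 (CDK1). With upper-quartile scaling CDC20 stood at 0.011, CDC6 at 0.00061 and MCM4 at 0.0064. With library totals CDC20 stood at 0.0059 and MCM4 at 0.0018, and with a filter of 1 CPM CDC20 at 0.00059. Without both number 3 libraries the values were 0.10 for CDC20, -0.026 for CDK1, 0.015 for MCM2, 0.023 for MCM5, -0.0045 for PCNA, -0.028 for RRM1 and 0.0073 for TTK. With 1 library left out the ranges were -0.069 to 0.094 for CDC20, -0.11 to 0.086 for CDC6, -0.043 to 0.21 for CDK1, -0.13 to 0.019 for CENPF, -0.12 to 0.039 for FEN1, -0.16 to 0.0040 for KIF11, -0.13 to 0.0099 for MCM2, -0.051 to 0.058 for MCM4, -0.17 to 0.098 for MCM5, -0.080 to 0.19 for PCNA, -0.035 to 0.11 for RRM1 and -0.19 to 0.11 for TTK. The cause of these changes of sign was not tested. Depth limits NUSAP1, at 24 to 39 reads a library.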
